A study of Mus musculus with 5 samples.

Results

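Expression of 9 scavenger receptor genes was described in macrophages sorted from the outer layer (adventitia) and the inner layer (intima) of the mouse aorta. The genes Cd36, Msr1, Marco, Scarb1, Olr1, Cd5l, Scarf1, Colec12 and Cd68 were taken by name from a list of receptors that bind modified lipoproteins, and all 9 were found by symbol among the 41388 Ensembl genes of each deposited table. The 3 adventitia libraries came from ApoE-/- mice on the C57BL/6 strain (6 mice for the group) that ate a high fat diet for 28 weeks, and live cells were gated on CD64 alone after digestion of the adventitia of the whole aorta, abdominal part included. The 2 intima libraries came from C57BL/6 mice, 5 animals pooled for each, and live CD64+ CD11c+ MHC II+ cells were gated from the thoracic aorta after the adventitia had been removed. The labels give neither genotype nor diet for the intima mice, and no age for either group. Layer, aortic segment and gate changed together between the groups, with genotype and diet as far as they are labelled, so their parts in any difference below cannot be told apart. In bulk libraries fewer cells of a type and less RNA per cell cannot be told apart either.

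Scavenger receptors bind oxidised or acetylated low-density lipoprotein and other polyanionic or oxidised ligands, and unlike the LDL receptor they are not shut down by the cholesterol that a cell has taken up. In the arterial wall such uptake is a known route by which macrophages become lipid-laden foam cells. The family is a set of unrelated protein classes. Msr1 (SR-A), Marco and Colec12 are collagen-like class A receptors, Cd36 and Scarb1 (SR-BI) are class B receptors, Cd68 is a mucin-like protein of late endosomes and lysosomes, and Olr1 (LOX-1) is a C-type lectin. Scarf1 carries EGF-like repeats, and Cd5l (AIM) is a secreted protein with scavenger receptor cysteine-rich domains.

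RefSeq promoter windows in GRCm38.p6 were found for 5 of the 9 genes, Cd68, Cd36, Cd5l, Marco and Olr1. The 250 bases before the start are printed for Cd68, the member with the highest RPKM (reads per exon length and library total) in every library, and for Marco and Olr1, the members with almost no reads, so that both ends of the expression range can be read side by side. The windows lie at chr11:69666171-69666420 for Cd68, chr1:120505025-120505274 for Marco and chr6:129507166-129507415 for Olr1, all on the minus strand and written 5′ to 3′. Capitals mark matches on either strand to GAGGAA (the core that the myeloid factor PU.1 binds), TGANTCA (an AP-1 site) and AGGTCA (a nuclear receptor half-site), none of which overlap each other here.
Cd68: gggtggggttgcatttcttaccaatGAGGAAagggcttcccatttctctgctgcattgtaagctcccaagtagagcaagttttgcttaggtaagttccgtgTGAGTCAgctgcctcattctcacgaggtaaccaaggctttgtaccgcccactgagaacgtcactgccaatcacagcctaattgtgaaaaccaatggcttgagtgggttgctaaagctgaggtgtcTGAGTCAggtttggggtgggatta
Marco: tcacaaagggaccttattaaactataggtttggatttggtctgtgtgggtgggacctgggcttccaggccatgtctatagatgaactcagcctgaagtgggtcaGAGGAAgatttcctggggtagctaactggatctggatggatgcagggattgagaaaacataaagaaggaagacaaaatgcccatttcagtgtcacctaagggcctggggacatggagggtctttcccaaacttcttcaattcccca
Olr1: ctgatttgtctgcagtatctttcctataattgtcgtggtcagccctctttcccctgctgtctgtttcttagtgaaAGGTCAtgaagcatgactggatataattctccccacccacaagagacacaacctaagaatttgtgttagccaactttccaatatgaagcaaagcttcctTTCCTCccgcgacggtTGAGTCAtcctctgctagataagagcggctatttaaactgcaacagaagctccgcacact

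The GAGGAA core had 1 match in each of the 3 printed windows and in that of Cd5l and 0 in that of Cd36, and it was held by 23.3% of 32817 RefSeq windows of the same length. TGANTCA had 2 matches before Cd68, 1 before Olr1 and 0 before the other 3 genes, and 6.75% of all windows held it. AGGTCA had 1 match each before Olr1 and Cd36 and 0 before the other 3 genes, with 14.0% of all windows holding it. The Cd36 window is not printed because the sequence after that start matched no annotated transcript of the gene. These are letter matches in 1 window per gene and say nothing about binding.

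The libraries held 3941381, 10076142 and 10054377 counted reads in the adventitia and 14970204 and 20806925 in the intima. All 10 macrophage markers looked up had reads in both groups, with a summed level of 26298 to 33993 CPM (counted reads scaled to the library total) in the adventitia and 20925 to 29413 CPM in the intima. Apoe, disrupted in the adventitia donors, was at 10.8 to 21.1 CPM there and at 4741 and 4209 CPM in the intima. The 2 intima libraries stood apart from each other. Of the genes at 10 CPM or more in one of them, 15.5% were under 0.5 CPM in the other, against 1.58 to 1.87% between adventitia libraries, and their log2 CPM correlated at 0.69 across genes, against 0.79 to 0.85 within the adventitia. Differences are given as log2 intima minus adventitia from edgeR's quasi-likelihood model of all genes with TMM scaling. The call threshold was a Benjamini-Hochberg adjusted p of 0.05. That fit tested 13408 genes and called 0.671% of them, 0.522% as higher and 0.149% as lower in the intima.

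Read per gene length (RPKM, which is CPM per kilobase of exon), the family had the same top 3 in each of the 5 libraries, Cd68, then Cd36, then Msr1. Cd68 alone made up 67.0 to 84.6% of the summed RPKM of the 9 genes in the adventitia and 82.8 and 85.0% in the intima. Cd36 made up 10.1 to 24.3% and 11.3% in both intima libraries, and Msr1 3.74 to 6.87% against 4.99 and 2.88%. The RPKM ranges of these 3 genes did not touch each other within either group. Below them the order differed between the layers. Colec12 took rank 4 in all 3 adventitia libraries and rank 6 in both intima libraries, while Scarb1 took rank 4 in both intima libraries. Marco, Olr1 and Scarf1 stayed under 1 RPKM in every library, except Scarf1 at 2.96 RPKM in adventitia replicate 2. Some neighbours had overlapping RPKM ranges and so no clear order. These were Scarb1 and Cd5l in the adventitia, at 1.37 to 3.47 and 1.51 to 2.73, and Marco, Olr1 and Scarf1 among themselves in both layers; Scarf1 replicate 2 also reached into the range of the first pair.

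**Figure D1:**
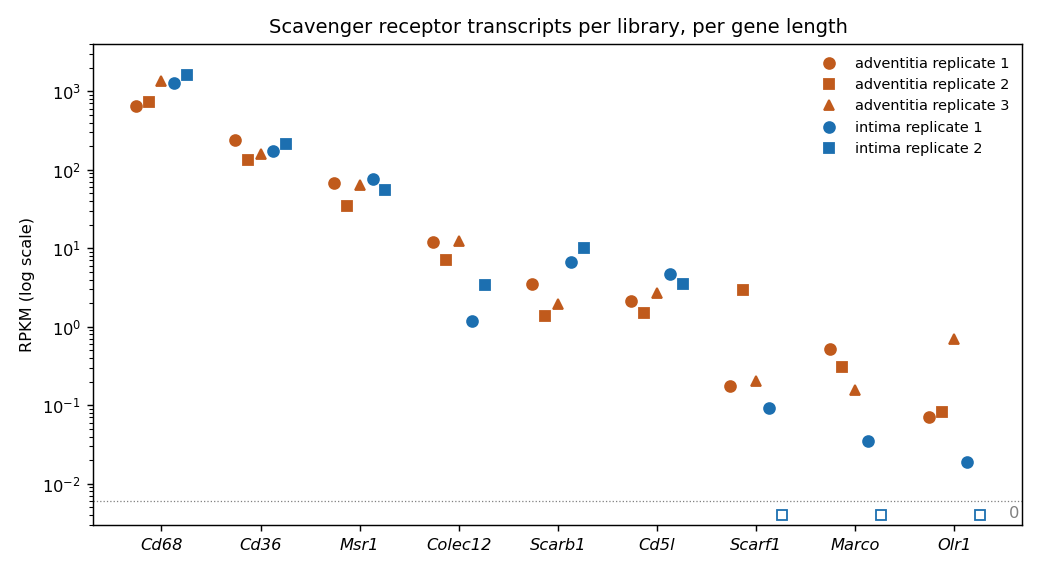
RPKM on a log axis for each of the 9 receptor genes, with 1 point per library (orange, adventitia; blue, intima; marker shape gives the replicate; open squares under the dotted line are values of 0). Cd68, Cd36 and Msr1 lead in all 5 libraries, Scarb1 lies higher and Colec12 lower in both intima libraries than in any adventitia library, and Scarf1, Marco and Olr1 have no read in intima replicate 2.

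No member was called in either direction. Of the 9 genes, 6 passed the filter on low counts, and edgeR called 0 of these 6, where 0.671% of all tested genes were called. One of the 6, Scarb1, had an unadjusted p under 0.05, as had 3010 of all 13408 tested genes, so that share was no higher among the members. DESeq2, which called 488 of all tested genes higher and 692 lower, and limma voom, which called 214 and 625, also called 0 members. The median log2 difference of the 6 was 0.68, beside 0.14 for all tested genes, and 5 were positive, beside 7161 of all 13408. The intervals below give, for each tested member, the range of differences compatible with the 5 libraries under the edgeR model.

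**Figure D2:**
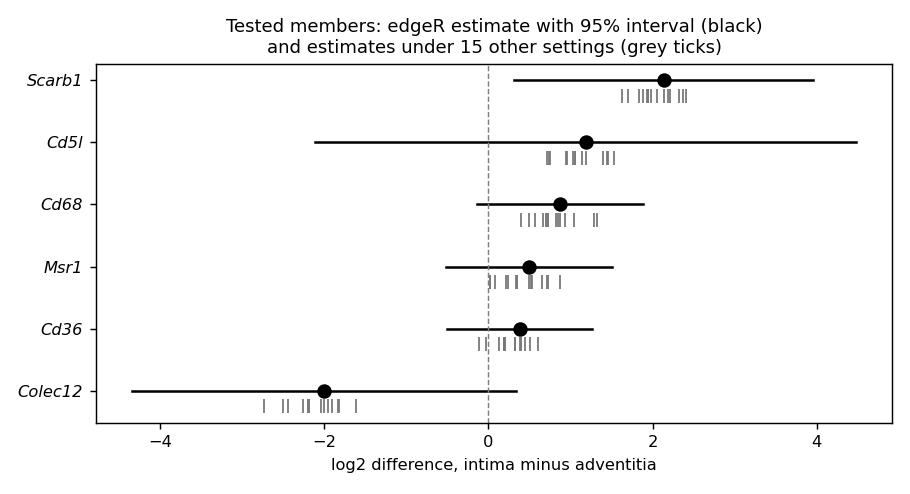
Log2 difference, intima minus adventitia, of the 6 tested members (black point, edgeR estimate; black line, its 95% interval; grey ticks, the estimates under 15 other settings). The interval of Scarb1 lies above 0 before adjustment over all genes, those of the other 5 members include 0, and the ticks of Cd36 fall on both sides of 0.

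Among the class B receptors, Cd36 was abundant with overlapping levels in the layers, and Scarb1 was scarce in the adventitia and several-fold higher in the intima without passing the test. Cd36 (ENSMUSG00000002944, chromosome 5, 17781690 to 17888959), which takes up oxidised lipoprotein and long-chain fatty acids, had 3671, 5291 and 6282 reads in the adventitia libraries and 10138 and 17542 in the intima libraries. That came to 931, 525 and 625 CPM in adventitial and 677 and 843 CPM in intimal libraries. The highest and the lowest value were both adventitia libraries, so the intima range lay wholly inside the adventitia range. The log2 difference was 0.38 (SE 0.40, 95% interval -0.50 to 1.26, n = 3 and 2, adjusted p = 0.643 in edgeR). An intima level over 2.40-fold or under 0.706-fold of the adventitia level fell outside that interval. The difference was -0.12 with upper-quartile scaling, which moved the median of all genes from 0.14 to -0.35, so that Cd36 moved with all genes. The Cd36 difference was -0.031 with counts thinned to the smallest library, where the median of all tested genes was -0.05.

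Cd36 is also made by endothelial cells, fat cells and platelets. Of 7 fat cell markers, 7 had a read in the adventitia at a summed 3.28 to 12.1 CPM and 2 in the intima at 0.468 and 0.240 CPM. The most abundant, Car3, was at 4.57, 8.44 and 0.597 CPM in the adventitia. Adipoq, which defines fat cells, had 1 read in all (0.0992 CPM in adventitia replicate 2). All 7 platelet markers had a read in the adventitia, at a summed 2193 to 2606 CPM, and 6 of 7 in the intima, at 1683 and 565 CPM. Most of it was Pf4 in 4 of the libraries. In the adventitia Pf4 alone was at 2179 to 2581 CPM. There Ppbp reached 22.2 CPM, Itga2b 5.07 CPM and Gp9, Gp1ba, Gp5 and Treml1 no more than 1.52 CPM. Intima replicate 2 held Ppbp at 231 CPM, Itga2b at 20.8 CPM and Gp9 at 18.3 CPM, and intima replicate 1 had Ppbp at 0.200 CPM and no read of Itga2b or Gp9. Cd36 was at 843 CPM in the first of these libraries and 677 CPM in the second. The part of platelet RNA in that gap was not tested.

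Scarb1 (ENSMUSG00000037936, chromosome 5, 125277087 to 125341094), which moves cholesteryl ester and free cholesterol between cells and high-density lipoprotein and also binds modified lipoprotein, had 86, 87 and 125 reads in the adventitia and 621 and 1329 in the intima. Its level was 21.8, 8.63 and 12.4 CPM in adventitial and 41.5 and 63.9 CPM in intimal libraries. Both intima libraries were above all 3 adventitia libraries. The log2 difference was 2.13 (SE 0.83, 95% interval 0.31 to 3.95, n = 3 and 2), a 4.39-fold estimate. In edgeR the unadjusted p was 0.0256 and the adjusted p was 0.161. The estimate ran from 1.62 to 2.41 over 15 other settings and the adjusted p from 0.0720 to 0.530, so it passed under none of them.

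Scarb1 is known from endothelium too, and summed endothelial markers were also higher in the intima. All 10 endothelial markers had reads in both groups, with a summed 32.3 to 58.9 CPM in adventitial and 741 and 920 CPM in intimal libraries. Of that list edgeR called 4 of 10, each higher in the intima, beside 0.522% of all tested genes called higher. Pecam1, the most abundant, was at 0.796 to 4.66 CPM in adventitial and 193 and 326 CPM in intimal libraries. Kdr went the other way, at 1.27 to 1.89 CPM in the adventitia and no more than 0.200 CPM in the intima. Erg overlapped between the groups, at 0.398 to 7.87 CPM against 19.1 and 0 CPM. Between the intima libraries, Pecam1, Tie1, Tek, Egfl7 and Esam were higher in replicate 2, as Scarb1 was. Cdh5, Vwf, Emcn, Erg and Kdr were lower there. The part of endothelial RNA in the Scarb1 difference was not tested.

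Among the collagen-like class A receptors, Msr1 levels overlapped between the layers, Colec12 was lower in the intima without passing the test, and Marco was close to absent. Msr1 (ENSMUSG00000025044, chromosome 8, 39581700 to 39642678), the first receptor described for acetylated lipoprotein, had 1058, 1385 and 2594 reads in the adventitia and 4544 and 4566 in the intima. Its level was 268, 137 and 258 CPM in adventitial and 304 and 219 CPM in intimal libraries. The groups overlapped, with adventitia replicate 2 the lowest library and intima replicate 1 the highest. The log2 difference was 0.50 (SE 0.46, 95% interval -0.51 to 1.51, n = 3 and 2, adjusted p = 0.586 in edgeR), so an intima level over 2.84-fold of the adventitia level fell outside the interval. It was 0.01 without intima replicate 1 and 0.87 without intima replicate 2.

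Colec12 (ENSMUSG00000036103, chromosome 18, 9707648 to 9877995), a collectin that binds oxidised lipoprotein and sugars, had 156, 238 and 419 reads in the adventitia and 59 and 234 in the intima. Its level was 39.6, 23.6 and 41.7 CPM in adventitial and 3.94 and 11.2 CPM in intimal libraries. Both intima libraries were below every adventitia library, and they differed 2.85-fold from each other. The mean was 35.0 ± 9.87 CPM (SD, n = 3) against 7.59 ± 5.17 CPM (SD, n = 2). The log2 difference of -2.00 (SE 1.07, 95% interval -4.34 to 0.34, n = 3 and 2, adjusted p = 0.295 in edgeR) did not pass, and the adjusted p ran from 0.0544 with DESeq2 to 0.710 over 15 other settings.

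Stromal and endothelial cells also make Colec12. Summed fibroblast markers were lower alongside it, while summed endothelial markers were higher in the intima (741 and 920 CPM against 32.3 to 58.9 CPM). All 8 fibroblast markers had reads in both groups, with a summed 641 to 1461 CPM in adventitial and 268 and 225 CPM in intimal libraries. Of these 1, Lum, was called lower, beside 0.149% of all tested genes. Dcn, the most abundant, was at 325 to 702 CPM in adventitial and 107 and 15.4 CPM in intimal libraries. Col1a1, Col3a1 and Pi16 overlapped between the groups, with Col3a1 at 67.4 to 175 CPM against 138 and 37.4 CPM. Between the 2 intima libraries, Col1a1 (0.468 and 81.0 CPM) and Col1a2 (21.1 and 79.3 CPM) were higher in replicate 2, as Colec12 was. So was Pi16 (0.468 and 11.7 CPM), while Dcn and Col3a1 were lower there. Lum, Pdgfra and Dpt had too few reads to compare, with at most 0.334 CPM in replicate 1 and no read in replicate 2. The part of stromal and endothelial RNA in the Colec12 difference was not tested.

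Other cell types were looked up in the same way. The 8 smooth muscle markers, all with reads in both groups, summed to 14.2 to 57.8 CPM in adventitial and 294 and 91.7 CPM in intimal libraries, with 1 called higher; the most abundant, Acta2, was at 0 to 2.88 CPM and at 145 and 23.5 CPM. Tagln was higher in both intima libraries as well, Myh11 and Des were lower, and Cnn1, Smtn, Lmod1 and Mylk overlapped. Of 7 dendritic cell markers, 7 had a read in the adventitia and 6 in the intima. Their sum was 220 to 425 CPM against 5.68 and 32.9 CPM, and 1 was called lower. Most of the adventitia sum was Cd209a, at 201 to 388 CPM and at 0.468 and 0.384 CPM. Clec9a went the other way, at 0.397 to 4.82 CPM against 4.94 and 21.5 CPM, and Ccr7 overlapped. All 7 monocyte markers had reads in both groups, at 1011 to 1602 CPM against 372 and 772 CPM. Of these, 1 was called in each direction, and Ccr2 was the most abundant. Over all tested genes 0.522% were called higher and 0.149% lower. B cell markers summed to 6.60 to 36.9 CPM and 21.9 and 26.9 CPM, and T and NK cell markers to 1.49 to 6.37 CPM and 0.0668 and 38.2 CPM. Neutrophil markers summed to 59.6 to 124 CPM and 4.61 and 101 CPM. Their most abundant genes were Cd79b, Cd3e and Csf3r. No gene of these last 3 lists was called, and the part of any of these cells in the member values was not tested.

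**Figure D3:**
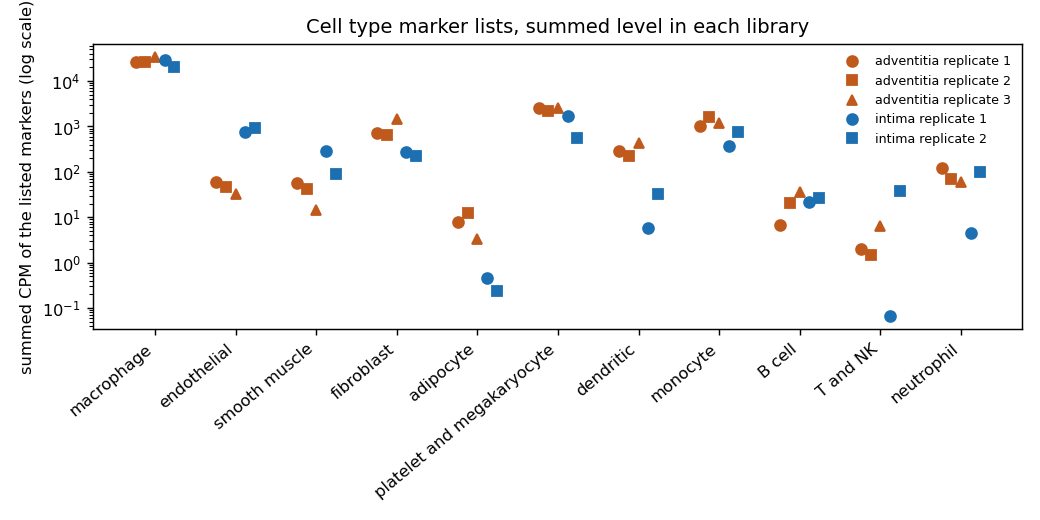
Summed CPM, on a log axis, of each marker list in each library (orange, adventitia; blue, intima; marker shape gives the replicate). Macrophage markers overlap between the groups, endothelial markers are higher in both intima libraries (741 and 920 CPM against 32.3 to 58.9), and fibroblast markers are lower (268 and 225 CPM against 641 to 1461).

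Marco (ENSMUSG00000026390, chromosome 1, 120474538 to 120505024), a receptor for bacteria and particles that marks marginal zone and alveolar macrophages, had 4, 6 and 3 reads in the adventitia and 1 and 0 in the intima. That is 1.01, 0.595 and 0.298 CPM against 0.0668 CPM and no read. It did not pass the filter on low counts and was not tested. Pooled CPM was 19.3 times as high in the adventitia, with an exact 95% interval of 2.90 to 821 that covers counting error only. In intima replicate 2 a count of 0 allows up to 0.144 CPM (3 reads).

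Olr1 and Scarf1, known best from endothelial cells, each owed nearly all of their reads to 1 adventitia library, and not to the same one. Olr1 (ENSMUSG00000030162, chromosome 6, 129485246 to 129507165) had 1, 3 and 25 reads in the adventitia, with 86.2% of them in replicate 3, and 1 and 0 in the intima. Scarf1 (ENSMUSG00000038188, chromosome 11, 75513540 to 75526582) had 2, 86 and 6 reads in the adventitia, with 91.5% of them in replicate 2, and 4 and 0 in the intima. In that library Scarf1 reached 8.54 CPM, against 0.507 and 0.597 CPM in the other adventitia libraries. Summed endothelial markers were at 58.9, 46.3 and 32.3 CPM in the adventitia libraries and at 741 and 920 CPM in the intima libraries. Among the adventitia libraries, Vwf (26.4 CPM), Cdh5 (8.54 CPM), Pecam1 (4.66 CPM) and Kdr (1.89 CPM) were highest in replicate 2. Egfl7 (23.6 CPM), Tie1, Emcn, Erg and Esam were highest in replicate 1, and Tek in replicate 3.

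Neither gene was tested. The pooled ratio of adventitia over intima fell from 43.1 to 10.2 for Olr1 without adventitia replicate 3 (exact 95% interval 1.01 to 503) and from 34.9 to 5.11 for Scarf1 without adventitia replicate 2 (1.37 to 23.2). The part of endothelial RNA in these counts was not tested.

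Cd5l and Cd68 had higher mean levels in the intima, and neither passed the test. Cd5l (ENSMUSG00000015854, chromosome 3, 87357881 to 87371074), which is secreted by tissue macrophages and is known to support their survival, had 17, 31 and 56 reads in the adventitia and 142 and 149 in the intima. Its level was 4.31, 3.08 and 5.57 CPM in adventitial and 9.49 and 7.16 CPM in intimal libraries. Both intima libraries were above the adventitia libraries, but the log2 difference of 1.18 had an interval from -2.11 to 4.48 (SE 1.50, n = 3 and 2, adjusted p = 0.709 in edgeR).

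Cd68 (ENSMUSG00000018774, chromosome 11, 69664213 to 69666153), the lysosomal glycoprotein used to stain macrophages in plaques, had 3244, 9334 and 16834 reads in the adventitia and 23703 and 42317 in the intima. Its level was 823, 926 and 1674 CPM in adventitial and 1583 and 2034 CPM in intimal libraries. Adventitia replicate 3 reached above intima replicate 1, so the ranges of deposited CPM overlapped by a small margin. After TMM scaling they did not overlap, at 707 to 1677 CPM in adventitial and 1850 and 2121 CPM in intimal libraries. The log2 difference was 0.87 (SE 0.46, 95% interval -0.15 to 1.88, n = 3 and 2, adjusted p = 0.295 in edgeR). It was 1.28 without adventitia replicate 3 and 0.57 without adventitia replicate 1.

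On the deposited CPM, 3 of the 6 tested members had separate ranges in the groups, Scarb1 and Cd5l with the intima above and Colec12 with the intima below. Among all tested genes 14.1% lay apart with the intima above and 26.4% with the intima below, so such a separation was common. The count was 4 with TMM scaling, where Cd68 joined these with the intima above. It was 4 with RLE scaling and 2 with upper-quartile scaling.

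Ratios of 2 genes in the same library do not depend on how libraries are scaled. Of the 15 ratios between tested members, 8 had ranges that did not overlap between the groups, beside 36.0% of all pairs of tested genes with reads in every library. All 5 ratios that involve Colec12 were among the 8. The others were Cd36 to Scarb1, Msr1 to Scarb1 and Msr1 to Cd5l. The order of the genes turned around for 2 pairs. Colec12 was above Scarb1 by 3.44, 5.18 and 6.35-fold (RPKM) in the adventitia libraries, while Scarb1 was above Colec12 by 5.56 and 3.00-fold in the intima libraries. Colec12 was above Cd5l by 5.63, 4.71 and 4.59-fold in the adventitia and below it by 3.93 and 1.04-fold in the intima. In intima replicate 2 these were 3.52 and 3.39 RPKM on 149 and 234 reads, a gap smaller than counting error, so this turn was resolved in replicate 1 alone. The ratio of the 2 most abundant receptors, Cd36 to Cd68, was 0.362, 0.181 and 0.119 in the adventitia and 0.137 and 0.133 in the intima, so those ranges overlapped. These pairs were singled out after their values were seen.

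**Figure D4:**
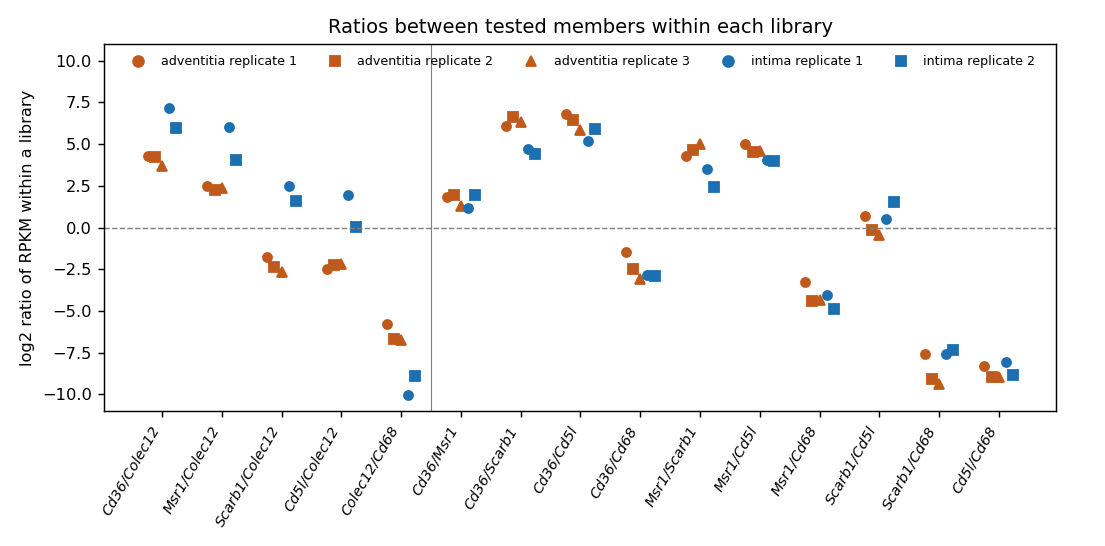
Log2 ratio of RPKM within each library for the 15 pairs of tested members, those with Colec12 to the left of the vertical line (orange, adventitia; blue, intima; marker shape gives the replicate). Points above the dashed line mean that the first gene is the higher one, and the ratios of Scarb1 and Cd5l to Colec12 lie below it in all adventitia libraries and above it in both intima libraries.

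Other scavenger and lipoprotein receptors were looked up as a list of 15, of which 14 were tested and 0 called (4 with an unadjusted p under 0.05), with a median log2 difference of 0.61 beside 0.14 for all genes. Over all 13408 tested genes 3010 had an unadjusted p under 0.05. The sign of the median rested on intima replicate 2, since it was -1.19 without that library, and it was 0.10 with limma voom or upper-quartile scaling. DESeq2 called 3 of the list, Cd163 and Scara5 lower and Lrp1 higher, where it called 488 of all 13408 genes higher and 692 lower. Without intima replicate 1 the edgeR log2 difference of Cd163 was -4.58. Cxcl16, a transmembrane chemokine that also binds oxidised lipoprotein, was at 281, 690 and 484 CPM in adventitial and 969 and 713 CPM in intimal libraries (edgeR log2 difference 1.02 with SE 0.48, adjusted p = 0.231). Cd163, the haemoglobin scavenger receptor of resident macrophages, was at 748, 480 and 465 CPM in adventitial and 153 and 22.9 CPM in intimal libraries (edgeR log2 difference -2.36 with SE 0.72, adjusted p = 0.113). Both intima libraries were above all adventitia libraries for Cxcl16 and below all of them for Cd163. Lrp1, a large endocytic receptor for remnant lipoproteins, was named after its values were seen, at 80.0 to 87.8 CPM against 181 and 260 CPM (edgeR log2 difference 1.59 with SE 0.44, adjusted p = 0.0978).

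Genes that handle lipid once it is inside the cell were a list of 15, all tested and 0 called (2 with an unadjusted p under 0.05), with a median log2 difference of 0.60 and 12 positive, beside 3010 and 7161 of all 13408 genes. The median was 0.09 with upper-quartile scaling. Npc2, which carries cholesterol out of the lysosome, was at 821, 795 and 993 CPM in adventitial and 1245 and 989 CPM in intimal libraries, and the groups overlapped. Abcg1, which exports cholesterol to high-density lipoprotein, was at 84.2, 320 and 462 CPM in adventitial and 734 and 1227 CPM in intimal libraries (edgeR log2 difference 1.93 with SE 0.62, adjusted p = 0.115). Both intima libraries were above the adventitia libraries, which themselves spread widely.

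Transcription factors known to act on the receptor genes were a list of 10, all tested and 0 called, with a median log2 difference of -0.13. In edgeR 2 had an unadjusted p under 0.05, beside 3010 of all 13408 genes. Without intima replicate 1 the edgeR log2 difference was -5.92 for Cebpb and -10.6 for Rxra, which had no read in intima replicate 2. DESeq2 called Cebpb (adjusted p = 0.00123) and Pparg (adjusted p = 0.0255), where it called 488 of all 13408 genes higher and 692 lower. Cebpb, a factor of inflammatory macrophages, was at 863, 499 and 189 CPM in adventitial and 54.9 and 8.12 CPM in intimal libraries (edgeR log2 difference -3.69 with SE 0.88, adjusted p = 0.0868). Pparg, the nuclear receptor known to drive Cd36 transcription, was named after its values were seen. Its level was 4.57, 13.9 and 14.3 CPM in adventitial and 52.1 and 60.5 CPM in intimal libraries (edgeR log2 difference 2.55 with SE 0.88, adjusted p = 0.127), while the Cd36 ranges given above overlapped.

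Co-receptors and kinases of CD36 signalling were a list of 11, all tested, of which 1 was called higher and 0 lower, beside 0.671% of all genes. In edgeR 2 had an unadjusted p under 0.05, beside 3010 of all 13408 genes. The list had a median log2 difference of 0.26. That median was 0.53 without adventitia replicate 2 and 0.42 without intima replicate 2, and its sign followed the scaling (-0.24 with upper-quartile scaling). Cd9, a tetraspanin that associates with CD36, was at 139, 165 and 257 CPM in adventitial and 1173 and 974 CPM in intimal libraries, and rose by 2.74 on the log2 scale (SE 0.45, n = 3 and 2, adjusted p = 0.0192 in edgeR). The call was lost without adventitia replicate 1 or replicate 2, with an adjusted p of 0.215 and 0.125 in edgeR, while the log2 difference was 2.46 and 2.62. Cd81, another tetraspanin, was at 1343, 1566 and 2012 CPM in adventitial and 2923 and 3431 CPM in intimal libraries (edgeR log2 difference 1.17 with SE 0.42, adjusted p = 0.141). Both tetraspanins were higher in each intima library than in any adventitia library.

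**Figure D5:**
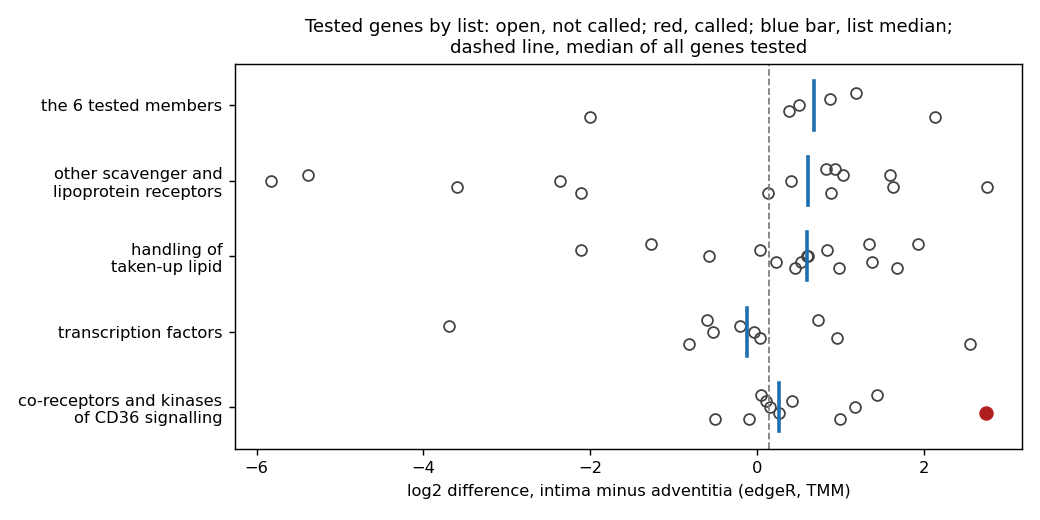
Log2 difference, intima minus adventitia, of the tested genes of each list (open points, not called; red point, called, which is Cd9; blue bar, median of the list; dashed line, median of 13408 tested genes at 0.14). The lists of receptors and of lipid handling have medians of 0.61 and 0.60, and genes of each list lie on both sides of 0.

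The genes whose profile over the 5 libraries lay closest to each tested member were sought among 6479 named genes (6480 for Cd5l) whose average log2 CPM reached 4, by the Euclidean distance of centred log2 CPM. They were Polr2c and Fbxo3 for Cd36 (distance 0.14 and 0.15), Swi5 and Mgme1 for Msr1 (0.17 and 0.20), Alcam and Polr2d for Cd5l (0.19 and 0.20) and Zfp638 and Tmx1 for Cd68 (0.11 and 0.14). Scarb1 had more distant neighbours, Fblim1 and Lmf2 (0.37 and 0.37), and so had Colec12, Actr6 and Rprd2 (0.38 and 0.65). No other receptor of the list was the nearest neighbour of a member. Cd5l (average log2 CPM 2.67) and the untested Marco, Olr1 and Scarf1 could not be, as they were outside the genes searched. With 5 libraries these distances describe the profiles only.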

How the data were processed

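Poly-A RNA of sorted cells was made into cDNA with a SMARTer Ultra Low kit, amplified for 12 cycles and read as single 50-base reads, per the labels' protocols. The submitters' processing notes name GRCm38, STAR 2.0.4b, Subread and featureCounts 1.4.5, with no role; the annotation and the use of strand are not given in the sources used here. Each deposited count is a whole number of reads. The authors also deposited CPM and RPKM, which equalled values computed from these counts and the deposited gene lengths, with 0 mismatches at a tolerance of 1e-06. No exon of a member overlapped another gene of the tables.

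Symbols came from a table of Ensembl IDs (40254 of 41388 matched). Genes passed edgeR's filterByExpr by group (minimum count 10, minimum total 15) and were tested with edgeR 4.0.16 in R 4.3.3 on TMM-scaled counts, all 5 libraries, no covariates, and Benjamini-Hochberg adjustment over all genes. Standard errors are the log2 difference over the square root of F. DESeq2 1.42.0 and limma 3.58.1 voom were alternatives. The fit was first run on simulated data whose known changes were larger than any member estimate here. That run does not show how the fit performs at the sizes estimated for the members. Pooled ratios have exact conditional 95% intervals, computed with scipy 1.17.1. Reads were amplified and carry no molecular identifiers, so intervals and limits from counts cover counting error only. The labels do not tell whether libraries came from separate animals throughout, so the spread behind each p-value may be partly technical.

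The members and gene lists were chosen with earlier results of these data known. Named were all 9 members, called genes of each related list and its 2 tested genes with the highest mean RPKM, the most abundant marker of each cell type list described, and the 2 nearest profiles of each tested member; other names are stated as chosen after their values were seen, as were single markers such as Adipoq, Ppbp and Kdr. One gene that this rule names is not reported here.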

Additional observations from a re-analysis of the deposited data

How the results depend on the processing

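No alternative called a member: over 15 alternatives each, 0 of the 90 differences of the 6 tested members passed the threshold, 88 kept their sign, and the 2 that reversed were Cd36 at -0.12 with upper-quartile scaling and -0.031 with thinned counts. The median of all tested genes was lower in these settings too, and the cause was not tested. Over all genes, 70 were called higher and 20 lower in the intima. The higher calls numbered 46 with upper-quartile scaling, 312 with no filter, 135 with a stricter filter (1 CPM throughout a group), 488 with DESeq2, 214 with limma voom and 45 with thinned counts, and 9 (without adventitia replicate 1) to 229 (without intima replicate 1) when each library was left out, with 40, 41 and 95 without adventitia replicates 2 and 3 and intima replicate 2. The lower calls numbered 34 with library size alone, 74 with no filter, 261 with the 1 CPM filter, 692 with DESeq2 and 625 with limma voom, and 1 to 160 without the same 2 libraries, with 12, 5 and 41 without the others. The median of all genes moved from 0.14 with TMM to -0.35 with upper-quartile scaling and -0.09 under library size alone. It was -0.02 with RLE and -0.05 with thinned counts, and member differences moved with it. Calls among the other receptors rose from 0 to 1 with no filter, 3 with DESeq2, 2 with limma voom and up to 1 (from 0) on leaving out a library. Lipid handling rose from 0 to 2 with no filter and 1 each with DESeq2 and limma voom. Transcription factors rose from 0 to 1 with no filter, the 1 CPM filter and limma voom, 2 with DESeq2, and 0 to 4 on leaving out a library, where the 4 came without intima replicate 1. CD36 signalling went from 1 to 2 with no filter and limma voom, and 0 to 1 on leaving out a library. A lone intima library was taken to have the spread of the adventitia ones. Of 60 list medians, 9 moved by more than the spread between libraries. Few reads limit Marco, Olr1 and Scarf1, with at most 1, 1 and 4 in an intima library.

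With the replicate number as a block, 133 genes were called higher and 50 lower, 0 members, and 1 gene each in the lists of other receptors, lipid handling and transcription factors. The labels do not tell whether same-numbered libraries belong together. Their deviations from the group means correlated at 0.035 and 0.0057 across genes. With 2 intima libraries the deviations of one mirror those of the other, so these values cannot settle whether the numbers pair libraries.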
